A study of Mus musculus with 4 samples.

Results

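The genes described here are 55 mouse cell cycle genes, out of 43346 gene entries quantified in 4 bulk RNA-seq libraries of the embryonic face. They were taken by name for their known roles in the cell cycle and split by function: 23 replication genes (10 for origin licensing, 10 at the replication fork, 3 for nucleotide synthesis), 24 mitotic genes, 5 cyclins of the D and E types, and 3 inhibitors of cyclin-dependent kinases (CDKs). Each library held RNA of a single facial process (lateral nasal, medial nasal, maxillary or mandibular), dissected from wild-type mice at stage e11.5. The labels give freshly dissected tissue of mixed cell type and no treatment. The sources used here do not give the strain or the number of embryos per library, and the tissue label of the medial nasal sample carries the abbreviation LNP although its title reads medial nasal process. No process had a second library, so no test was possible, and every interval below covers counting error only. Values given as 4 numbers with no further label are in the order lateral nasal, medial nasal, maxillary, mandibular.

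Facial processes are outgrowths of mesenchyme, largely from neural crest, covered by epithelium, and they grow and fuse to form the face. A dividing cell first builds up D-type and E-type cyclins, which switch on CDKs and release E2F transcription factors to turn on genes for DNA synthesis. Genes for mitosis are turned on later, with their promoters often bound at CHR and CCAAT elements, and CDK inhibitors hold cells out of the cycle.

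Totals ran from 13216161 to 16163874 estimated counts per library, so that 3 counts corresponded to 0.185 to 0.223 CPM (counts divided by library size after TMM scaling, times 1000000). A mean of at least 5 CPM over the 4 libraries was reached by 11694 entries and by 54 of the 55 genes, Cdkn1a being the exception. Markers of other cells differed between the libraries, and those values are needed beside the results below. The summed level of 12 markers of postmitotic neurons was 297, 548, 297.5 and 153 CPM, with 9 of the 12 highest in the medial nasal library (the most abundant, Tubb3, at 170.0 CPM there). For 9 neuroepithelial markers the sums were 66.7, 112, 35.9 and 15.1 CPM, 7 of them highest in the medial nasal library, with Otx2 at 0 counts in the mandibular one. Sums for 12 skeletal muscle markers were 36.6, 18.6, 274 and 805 CPM, all 12 highest in the mandibular library (Ttn at 546 CPM), with Mymk at 0 in both nasal libraries and Acta1 at 0 in the medial nasal one. The 10 erythroid markers, led by Hbb-y, summed to 4725, 2996, 4426 and 3322 CPM. Facial mesenchyme (8 markers, led by Col1a2) summed to 2729 to 3354 CPM and epithelium (10, led by Cdh1) to 256.5 to 445 CPM, with its lowest sum in the mandibular library. Endothelium (8, led by Kdr) summed to 258 to 297 CPM and leukocytes (8, led by Csf1r) to 25.5 to 29.3 CPM. The part of these cells in the results below was not tested.

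The medial nasal library held the least cell cycle RNA. All 55 genes together took 1.06%, 0.942%, 1.07% and 1.02% of the counts. The 23 replication genes summed to 3569, 2958, 3681 and 3446 CPM, and the 24 mitotic genes to 5985, 5135, 6007 and 5547 CPM. Both sums were therefore lowest in the medial nasal library. The maxillary sum was 1.03 times the lateral nasal one (1.02 to 1.04) for replication genes, and for mitotic genes these libraries did not differ beyond counting error (1.004, 0.995 to 1.01). In bulk tissue, fewer cycling cells and less of these transcripts per cell cannot be told apart.

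Gene by gene, 44 of the 54 genes above 5 CPM had their lowest level in the medial nasal library, against 34.2% of all genes. These were 22 of the 23 replication genes and 19 of the 24 mitotic genes, together with Ccne1, Ccne2 and Ccnd3. The lateral nasal library was lowest for 3 of the 54 (21.0% of all genes), the maxillary for 0 (20.3%) and the mandibular for 7 (24.4%). The highest level lay in the maxillary library for 30 of the 54 (28.4% of all genes), in the lateral nasal for 13 (25.1%), in the mandibular for 9 (25.9%) and in the medial nasal for 2 (20.6%). In TPM, which divides by the lengths of the isoforms estimated in each library, the lowest library was another one for 4 of the 54 genes (Gins2, Ccne2, Mki67 and Cdkn2c), and the highest library another one for 13. These counts of lowest and highest libraries were added after the values had been seen.

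The differences were small and even. As the difference of log2(CPM + 0.5) in 1 library from the mean of the other 3, the median of the replication genes was -0.26 in the medial nasal library (95% counting interval -0.28 to -0.23), or 0.837-fold. For the mitotic genes it was -0.24 (-0.26 to -0.22), or 0.847-fold, against -0.04 for all genes. The standard deviation of this difference over genes was 0.12 for replication and 0.11 for mitotic genes, against 0.37 for all genes. In the maxillary library the medians were 0.16 for replication and 0.17 for mitotic genes, and in the lateral nasal library 0.11 and 0.12, where all genes had 0.02 and 0.03. Each library's value is set against the other 3, so the low medial nasal levels enter the other comparisons. With the medial nasal library left out, the replication median was 0.03 (lateral nasal), 0.06 (maxillary) and -0.08 (mandibular), and the mitotic median 0.05, 0.11 and -0.16.

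**Figure D1:**
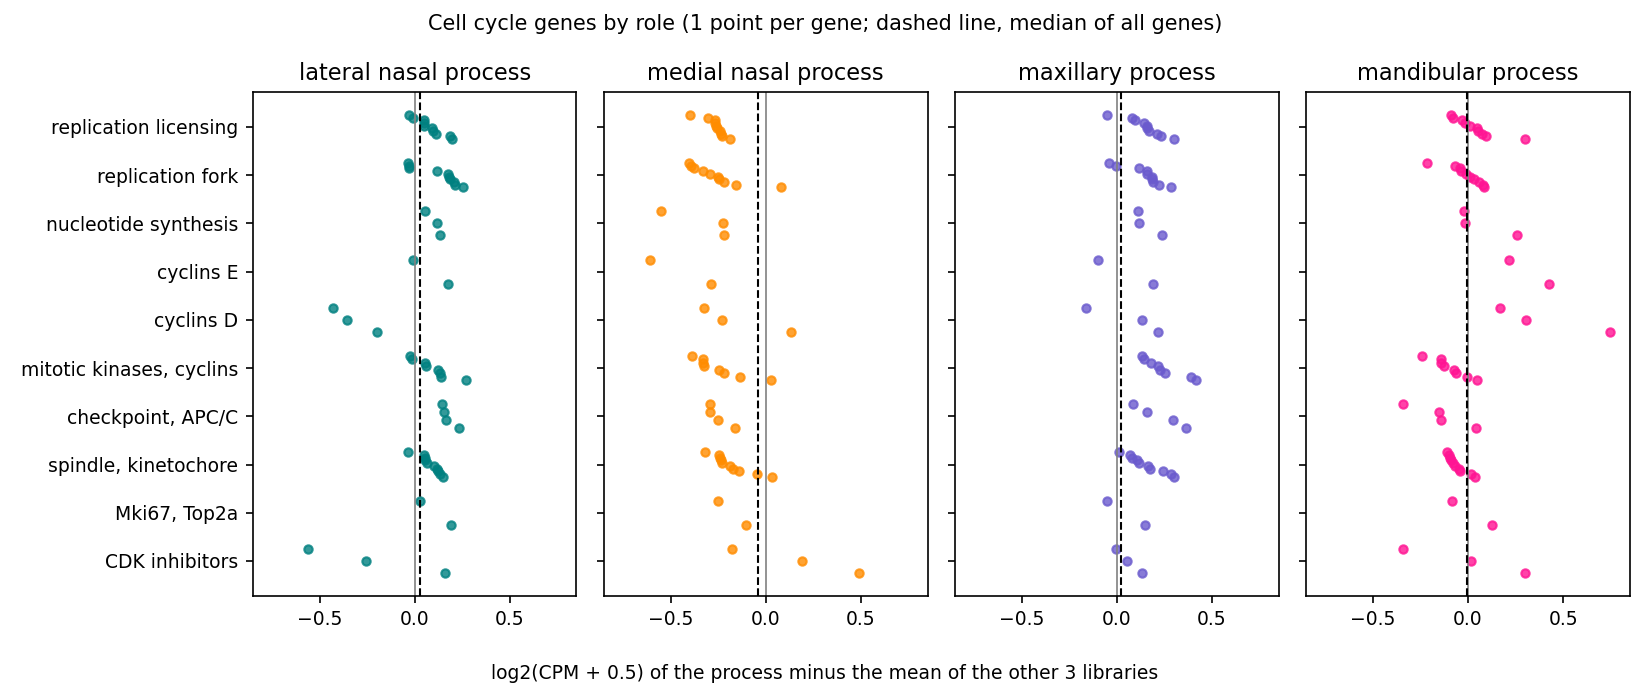
Difference of each cell cycle gene from the mean of the other 3 libraries (x axis, log2 of CPM + 0.5) in each of the 4 processes (panels), by role (rows), with 1 point per gene and the median of all genes as a dashed line. Replication and mitotic genes lie left of 0 in the medial nasal panel, with Gins2, Cdc25c and Cenpf as exceptions, and the D cyclins lie to the right of 0 in the mandibular panel, from 0.17 to 0.75.

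Replication and mitotic genes came apart in the mandibular library. There the replication median was 0.01 (-0.01 to 0.04), with 12 of 23 genes above 0, and the mitotic median was -0.08 (-0.10 to -0.06), with 5 of 24 above 0. Over all genes the median there was -0.0047, with 5733 of 11694 above 0. The replication median exceeded the mitotic one by 0.09 (counting half-width 0.03), and the difference lay between 0.08 and 0.12 under every other setting tried. Many of those settings could hardly move it, because scaling shifts both medians alike and every gene of both lists passed all minima. Leaving out a library, which could move it, gave 0.078 to 0.087. For the remaining processes, in the order above, the difference was -0.01, -0.02 and -0.01, within half-widths of 0.03. Set against the maxillary library directly, the mandibular library was lower for 20 of 23 replication genes, by a median of 1.07-fold, and for 23 of 24 mitotic genes, by 1.13-fold. Over all genes it was lower for 6290 of 11694, by a median of 1.02-fold. Without replicate libraries, the spread that these medians would show between embryos is unknown.

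Further genes of the same functions gave values on the same side. They were measured in the same 4 libraries and listed with earlier results of these data known, so they are not an independent check. The median of 44 other replication genes was 0.06, -0.26, 0.11 and 0.06, with 33 of 44 above 0 in the mandibular one. The median of 53 other mitotic genes was 0.09, -0.17, 0.16 and -0.06, with 17 of 53 above 0 in the mandibular library. Lowest in the medial nasal library were 38 of the 44 and 43 of the 53, against 34.2% of all genes. In these larger lists, then, replication genes again stood above mitotic genes in the mandibular library, and in the medial nasal library the mitotic median was nearer to 0 than the replication median. The most variable of the other replication genes were Pold2, a subunit of polymerase delta (31.6 CPM in the medial nasal and 51.2 CPM in the maxillary library, 1.62-fold), Tk1, thymidine kinase (36.4 and 56.2 CPM, 1.54-fold), Rfc2, of the clamp loader (65.4 and 100.4 CPM, 1.53-fold), and Chaf1b, of the chromatin assembly factor (56.7 and 81.6 CPM, 1.44-fold). Among the other mitotic genes they were Pttg1, securin (37.2 and 57.2 CPM, 1.54-fold), Cks1b, a CDK subunit (62.7 and 88.4 CPM, 1.41-fold), the kinesin Kif22 (84.8 and 119 CPM, 1.41-fold), and Depdc1a, which was highest in the lateral nasal library (36.5 and 51.7 CPM, 1.42-fold). All of these 8 were lowest in the medial nasal library.

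**Figure D2:**
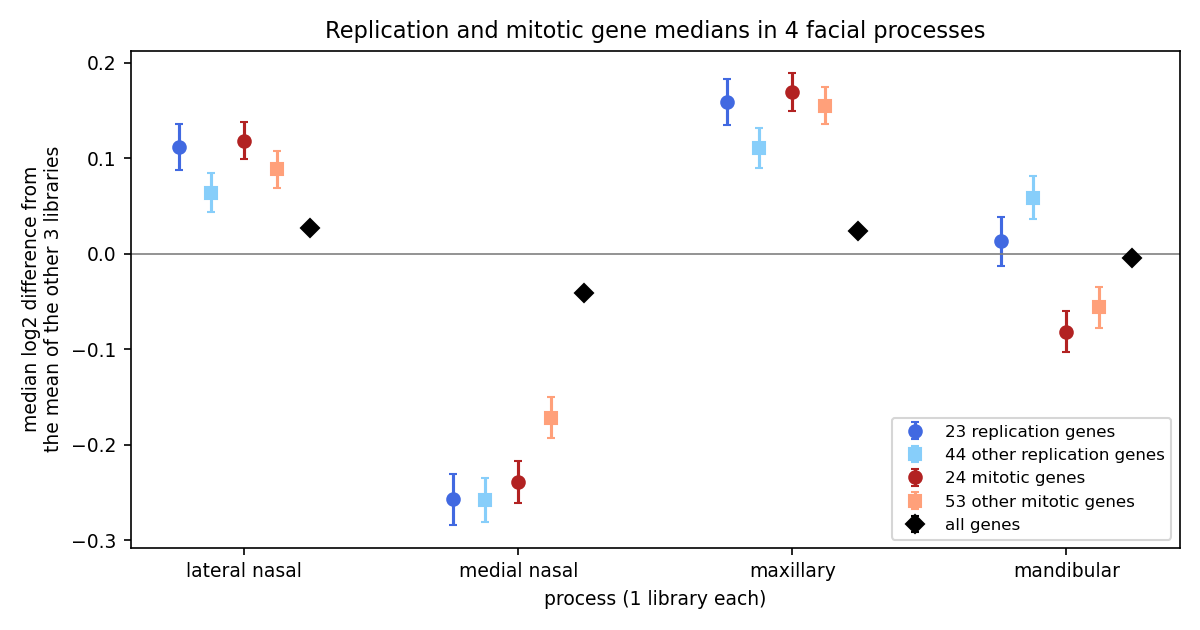
Median log2 difference from the mean of the other 3 libraries (y axis) for the replication and mitotic genes, 2 further lists of the same functions and all genes, in each process (x axis, 1 library each), with bars for the 95% counting interval. The 4 lists lie between -0.26 and -0.17 in the medial nasal library, above 0 in the lateral nasal and maxillary libraries, and on either side of 0 in the mandibular library.

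The same lists differed in the letters of their promoters. Windows from 250 bases before to 50 after the transcription start (RefSeq, GRCm38.p6) were at hand for 42 of the 55 genes. They were searched on both strands for 3 forms of the E2F site (TTTCCCGC, TTTGGCGC and TTTCGCGC), for the cell cycle homology region (CHR, TTTGAA or TTCGAA) and for the CCAAT box. An E2F form was found for 8 of 18 replication genes (44.4%) and for 1 of 19 mitotic genes (Cdk1, 5.26%), against 4.40% of 8801 genes above 5 CPM and 2.12% of all 27025 genes in the table. The CHR was found for 15 of 19 mitotic genes (78.9%) and 4 of 18 replication genes (22.2%), against 16.3% and 21.7% of those backgrounds. The CCAAT box was found for 17 of 19 mitotic (89.5%) and 12 of 18 replication genes (66.7%), against 43.9% and 41.1%. In the further lists an E2F form was found for 12 of 34 replication genes (35.3%) and 6 of 47 mitotic genes (12.8%), the CHR for 5 of 34 (14.7%) and 34 of 47 (72.3%), and the CCAAT box for 18 of 34 (52.9%) and 32 of 47 (68.1%). A match of letters describes the sequence and does not show that a factor binds there.

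The stretches of 80 bases below all lie before the RefSeq transcription start and are written 5′ to 3′ on the strand of the gene. By the GENCODE M21 gene bounds, the Cdc6 stretch lies within the gene. Those of Cdk1, Cdc20 and Ube2c reach into it. The 4 replication genes with an E2F form in the upstream part of their only window are shown first, with the E2F letters in capitals, which end 39 to 141 bases before the start. They lie at chr8:75109324-75109403 (plus strand) for Mcm5, chr1:128359709-128359788 (minus) for Mcm6, chr11:98907977-98908056 (plus) for Cdc6 and chrX:93632250-93632329 (minus) for Pola1. In Mcm5 a pair of E2F matches overlaps, giving a single run of capitals.
Mcm5: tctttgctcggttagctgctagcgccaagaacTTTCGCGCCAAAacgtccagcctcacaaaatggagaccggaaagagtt
Mcm6: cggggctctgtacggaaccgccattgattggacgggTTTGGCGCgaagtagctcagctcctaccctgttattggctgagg
Cdc6: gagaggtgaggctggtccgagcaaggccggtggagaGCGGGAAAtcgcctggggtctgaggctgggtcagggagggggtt
Pola1: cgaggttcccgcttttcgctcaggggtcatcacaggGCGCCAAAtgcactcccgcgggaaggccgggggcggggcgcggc

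For mitotic genes the CHR and CCAAT letters are both in capitals, and stretches are shown for 6 of the 8 genes with a CHR before the start of their only window. The remaining pair, Ccnb2 and Bub1b, had a CHR that ended 161 and 182 bases before the start, with no CCAAT in the stretch. Those shown are chr10:69352913-69352992 (minus) for Cdk1, chr4:118437344-118437423 (minus) for Cdc20, chr2:164769849-164769928 (plus) for Ube2c, chr19:37376302-37376381 (plus) for Kif11, chr11:99024190-99024269 (minus) for Top2a and chr7:135716435-135716514 (minus) for Mki67, the last with a pair of CHR matches and no CCAAT in this stretch. The CHR nearest to the start ended 9 bases before it in Cdk1, 12 in Cdc20, 13 in Kif11, 17 in Top2a, 23 in Ube2c and 92 in Mki67.
Cdk1: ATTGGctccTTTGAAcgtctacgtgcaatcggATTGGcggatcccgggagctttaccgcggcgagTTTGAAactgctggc
Cdc20: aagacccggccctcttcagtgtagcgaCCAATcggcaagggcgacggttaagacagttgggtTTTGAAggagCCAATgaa
Ube2c: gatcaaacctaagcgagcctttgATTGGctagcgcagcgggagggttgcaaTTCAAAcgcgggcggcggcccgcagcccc
Kif11: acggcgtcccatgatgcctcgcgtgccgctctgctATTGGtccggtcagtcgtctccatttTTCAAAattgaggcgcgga
Top2a: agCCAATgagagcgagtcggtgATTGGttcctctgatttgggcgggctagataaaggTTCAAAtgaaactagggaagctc
Mki67: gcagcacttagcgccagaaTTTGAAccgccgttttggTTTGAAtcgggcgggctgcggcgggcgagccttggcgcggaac

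Few single genes stood far apart between the processes. Only 3 of the 54 genes, Rrm2, Ccne1 and Ccnd1, were at least 1.5-fold apart between their highest and lowest library, against 18.3% of all genes, and 0 were at least 2-fold apart, against 7.11%. Ccnb2 (1.499-fold) and Aurka (1.48-fold) came next. At least 20% below the mean of the other 3, on the log2(CPM + 0.5) scale, there were 12 genes in the medial nasal library (7.53% of all genes): Mcm5, Pcna, Cdc45, Prim1, Rfc4, Rrm2, Ccne1, Ccnd3, Ccnb1, Ccnb2, Cdk1 and Aurka. Below by that amount were also Ccnd1 and Ccnd2 in the lateral nasal library (8.19%), Cdc20 and Cdkn1b in the mandibular (8.75%), and 0 in the maxillary (9.11%). At least 25% above stood Aurka, Ccnb2 and Cdc20 in the maxillary library (5.96%), Ccnd1 and Ccne1 in the mandibular (8.64%), and 0 in the lateral nasal (6.49%) and medial nasal (10.5%) libraries. Apart from the medial nasal library, these counts were at or under the share of all genes.

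Origin licensing loads the MCM helicase onto DNA before S phase. All 10 licensing genes were lower in the medial nasal library than the mean of the others, by -0.40 (Mcm5) to -0.19 (Mcm6) on the log2 scale. Of all genes, 6737 of 11694 were lower there. Mcm7, a helicase subunit with the highest mean level of the 10 per length (129.85 TPM, a share of all transcripts corrected for length), had 305, 275, 345 and 317 CPM. Mcm5, another subunit, had 267, 196, 273 and 237 CPM. Both were lowest in the medial nasal library, and the ratio of highest to lowest was 1.26 (1.21 to 1.31) and 1.39 (1.32 to 1.46). The subunits Mcm2, Mcm3, Mcm4 and Mcm6, Mcm10, which helps to start the fork, the loading factor Cdc6 and Gmnn (geminin, which blocks reloading) spanned 1.16-fold to 1.34-fold. The loading factor Cdt1 had 33.4, 29.6, 32.6 and 39.3 CPM, and it differed from the other 9 in being highest in the mandibular library.

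At the replication fork, 9 of 10 genes were lowest in the medial nasal library. Pcna, the sliding clamp and the most abundant of the 10 per length (mean of 135 TPM), had 229, 169, 223 and 207 CPM, 1.35-fold from lowest to highest (1.29 to 1.43). Rfc4, a subunit of the loader that places the clamp, had 40.7, 28.8, 39.3 and 35.0 CPM (1.42-fold, 1.246 to 1.608), and the primase subunit Prim1 had 74.5, 54.3, 70.9 and 68.7 CPM (1.37-fold, 1.251 to 1.506). For all 3 the other libraries lay above the medial nasal one, with the lateral nasal library highest. Gins2, of the GINS complex that activates the helicase, was the exception: it had 51.4, 54.4, 52.1 and 51.1 CPM, a ratio of 1.07 whose counting interval (0.959 to 1.18) includes 1. In TPM Gins2 was 23.4, 16.8, 23.4 and 18.9 and thus lowest in the medial nasal library as well. Gins1 and Cdc45, which act with it, the polymerase subunits Pola1 and Pole, and Fen1 and Lig1, which trim and join lagging strand fragments, spanned 1.18-fold to 1.34-fold. Fen1 stood lowest of the fork genes in the mandibular library, at -0.22.

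Among the enzymes of nucleotide synthesis, Rrm2, the regulated small subunit of ribonucleotide reductase (chr12:24708241-24714146, plus strand), had 138, 101, 152 and 153 CPM. It was 1.52-fold higher in the mandibular than in the medial nasal library (1.42 to 1.63), the widest span of the 23 replication genes. Its partner Rrm1, the large subunit and the most abundant of the 3 per length (mean of 83.7 TPM), had 407, 338, 402 and 376 CPM (1.21-fold, 1.161 to 1.252). Tyms, thymidylate synthase, had 111, 92.8, 111 and 103 CPM. The 3 genes shared the medial nasal low point. Rrm2 was highest in the mandibular library, but only just above the maxillary one (153 against 152 CPM), and no interval was taken for that ratio.

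The G1 cyclins were mixed. Ccnd1, cyclin D1 (chr7:144929931-144939925, minus strand), had 179.5, 191, 199 and 319 CPM, so that the mandibular library stood apart from the other 3, 1.78-fold above the lateral nasal one (1.69 to 1.86). Ccnd2, cyclin D2, the most abundant D cyclin per length (mean of 94.5 TPM), had 493, 661, 660.3 and 673 CPM, with the lateral nasal library low and the others close together. Ccnd3, cyclin D3, had 129, 121, 161 and 168 CPM, both nasal libraries below both others. The lowest library was thus the lateral nasal one for Ccnd1 and Ccnd2, and the medial nasal one for Ccnd3.

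Ccne1, cyclin E1, which drives entry into S phase (chr7:38097984-38107534, minus strand; mean of 25.7 TPM), had 51.4, 37.5, 57.1 and 64.6 CPM. The mandibular level was 1.72-fold the medial nasal one (1.54 to 1.92). Ccne2, cyclin E2, had 38.8, 30.4, 33.5 and 39.6 CPM (1.30-fold, 1.14 to 1.49). In TPM Ccne2 was 16.7, 18.6, 18.5 and 21.1, so that its lowest library was the lateral nasal one on that scale. The mandibular library had the highest CPM of all 5 D and E cyclins, but counting error included 1 in the ratio to the next library for Ccne2 (1.02, 0.908 to 1.147), Ccnd2 (1.02, 0.988 to 1.05) and Ccnd3 (1.05, 0.989 to 1.11). Ccne1 and Ccnd3 were lowest in the medial nasal library in both units.

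**Figure D3:**
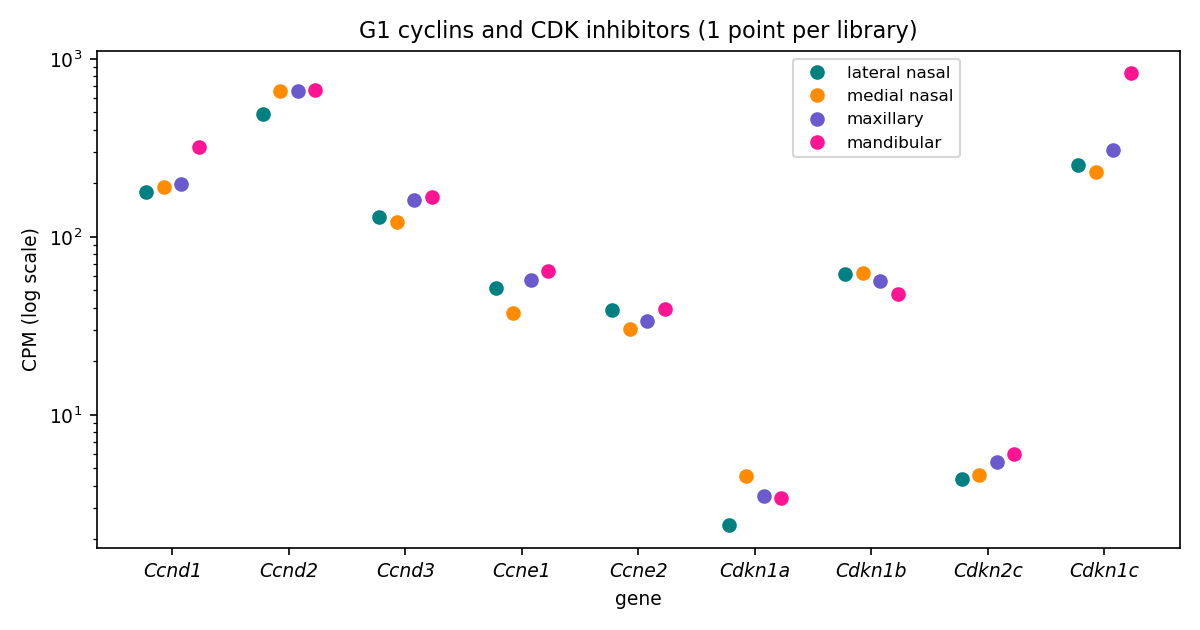
Level in CPM (y axis, log scale) of the D and E cyclins, the 3 CDK inhibitors among the 55 genes and the further inhibitor Cdkn1c (x axis), with 1 point per library. Ccnd1 and Cdkn1c stand out in the mandibular library, at 319 and 829 CPM, and Cdkn1a lies under 5 CPM in all 4 libraries.

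Of the CDK inhibitors, Cdkn1b, which encodes p27 and is the most abundant of the 3 per length (mean of 15.5 TPM), had 61.7, 62.7, 56.6 and 47.5 CPM. It was highest in the medial nasal and lowest in the mandibular library (1.32-fold, 1.19 to 1.46). Cdkn2c, which encodes p18, an inhibitor of the cyclin D kinases, had 4.37, 4.58, 5.47 and 6.01 CPM, and the interval of its ratio of 1.38 (0.988 to 1.92) includes 1. Cdkn1a, which encodes p21, had 2.40, 4.51, 3.49 and 3.41 CPM and was under the minimum for the counts above. In a further list of 7 inhibitors and G2 brakes, 4 reached 5 CPM. Among them Cdkn1c, which encodes p57 (chr7:143458339-143461050, minus strand), had 254, 231, 309 and 829 CPM, 3.59-fold from the medial nasal to the mandibular library (3.45 to 3.74). Cdkn2d, an inhibitor of the cyclin D kinases, had 13.05, 10.6, 10.9 and 8.54 CPM, and the kinases Wee1 and Pkmyt1, which hold CDK1 inactive, spanned 1.21-fold and 1.14-fold. The mandibular library therefore held the most Ccnd1 and the most Cdkn1c, and also the most muscle marker RNA given above.

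Other G1 to S regulators were mixed, with medians of -0.06, -0.10, 0.04 and 0.10 over 24 genes. Mycn, a transcription factor of growing tissue, had 40.3, 31.6, 65.3 and 50.6 CPM, and was 2.07-fold higher in the maxillary than in the medial nasal library (1.84 to 2.32). E2f8, a repressor of E2F target genes, had 13.8, 21.4, 20.5 and 26.6 CPM (1.93-fold), and Cdk6, a cyclin D kinase, had 20.2, 21.4, 23.8 and 34.3 CPM (1.69-fold). Rb1, the retinoblastoma protein that restrains E2F, had 31.8, 38.2, 24.2 and 29.9 CPM (1.58-fold), its highest level in the medial nasal and its lowest in the maxillary library. E2f8 and Cdk6 were highest in the mandibular library, as were Ccnd1 and Ccne1.

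Among the mitotic kinases and their partners, 7 of 8 were lower in the medial nasal library than the mean of the others, and all 8 were higher in the maxillary one. Over all genes, 6737 of 11694 were lower in the medial nasal and 6421 higher in the maxillary library. Cdk1, the kinase that drives mitosis and the most abundant of the 8 per length (mean of 139.8 TPM), had 147, 115, 147 and 140.3 CPM (1.28-fold, 1.20 to 1.37). The B-type cyclin Ccnb2 had 86.0, 65.9, 98.9 and 75.5 CPM, and Aurka, the kinase of the spindle poles, had 81.1, 66.4, 98.1 and 73.3 CPM. Both were highest in the maxillary library with the lateral nasal one next, while the mandibular and medial nasal libraries were lower. Ccna2 and Ccnb1, cyclins of S phase and mitosis, Aurkb, the kinase of the chromosomal passenger complex, and Plk1, a kinase of mitotic entry, spanned 1.21-fold to 1.36-fold. Cdc25c, a phosphatase that activates CDK1, had 37.0, 37.8, 41.9 and 32.8 CPM and was lowest in the mandibular library.

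Exit from mitosis is set by the anaphase-promoting complex (APC/C) and by the checkpoint that restrains it. Cdc20, the activator of the APC/C, had 134, 104, 143 and 99.3 CPM, with the medial nasal and mandibular libraries both below the others (1.44-fold, 1.35 to 1.55). Ube2c, the conjugating enzyme of the APC/C and the most abundant of the 4 per length (mean of 84.4 TPM), had 86.9, 68.9, 93.7 and 74.1 CPM. The checkpoint kinases Bub1 and Bub1b spanned 1.27-fold and 1.18-fold. Cdc20 and Ube2c thus shared an order, apart from the exchange of the lowest pair, and Bub1b also had the medial nasal and mandibular libraries at the bottom.

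Spindle and kinetochore genes varied less. Birc5 (survivin, of the chromosomal passenger complex), the most abundant of the 10 per length (mean of 76.1 TPM), had 84.5, 71.9, 94.7 and 76.98 CPM (1.32-fold, 1.21 to 1.43). Kif20a, a kinesin of cytokinesis, had 228, 182, 251 and 204 CPM (1.38-fold, 1.31 to 1.45), and was the most variable of the 10. The kinesins Kif11 and Kif23, the centromere proteins Cenpa and Cenpe, and the spindle factors Tpx2 and Hmmr spanned 1.16-fold to 1.29-fold, and all were lowest in the medial nasal library. Cenpf, a kinetochore protein of long transcript, had 452, 449, 443 and 420.0 CPM, and Nusap1, which binds spindle microtubules, had 114, 108, 114 and 106 CPM. These last were the flattest of the list, at 1.08-fold each, and were lowest in the mandibular library.

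Mki67 and Top2a are the usual marks of dividing cells. Top2a, the topoisomerase that untangles chromosomes, had the highest mean level per length of the 55 genes (284 TPM), with 1259, 999, 1228 and 1089 CPM (1.26-fold, 1.23 to 1.29). Mki67, which coats mitotic chromosomes, had 1218, 1135, 1166 and 1280 CPM (1.13-fold, 1.103 to 1.152). Both were lowest in the medial nasal library in CPM, while in TPM Mki67 was level between the medial nasal (96.7 TPM) and maxillary (96.6 TPM) libraries. They differed in the mandibular library, which was highest for Mki67 and second lowest for Top2a, and Mki67 was the only one of the 24 mitotic genes that was highest there.

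Taken as pairs of libraries, the commonest order set the lateral nasal and maxillary libraries above the medial nasal and mandibular ones. It held for 33 of the 54 genes, against 30.3% of all genes, and for 14 of 23 replication and 19 of 24 mitotic genes. The reverse order held for 1 gene (20.5% of all genes). Both first arch libraries (maxillary and mandibular) were above both nasal ones for 12 genes (15.9%), and both nasal above both first arch for 2 (13.9%). The lateral nasal and mandibular libraries were above the other pair for 4 genes (11.1%), and the medial nasal and maxillary libraries for 2 (8.28%). The erythroid marker sum, 4725 and 4426 CPM against 2996 and 3322 CPM, had the commonest order too, and its part in these counts was not tested. Sequencing depth also had that order, with 16163874 and 15385124 total counts against 13216161 (medial nasal) and 13680302 (mandibular). The part of depth was not tested either.

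Transcript length also moved with this order. Over all genes, the median difference in the medial nasal library was -0.14 for the shortest of 3 equal groups (up to 2039 bases), -0.04 for the middle group and 0.05 for the longest (from 3430 bases). In the maxillary library the same medians were 0.12, 0.02 and -0.06. Replication genes in these groups had medial nasal medians of -0.33 (7 genes), -0.25 (12) and -0.22 (4), and mitotic genes -0.25 (9), -0.24 (6) and -0.17 (9), each below all genes of like length. When the median of all genes in the same length decile was subtracted, an alternative added after the values had been seen, the medial nasal median was -0.22 for replication and -0.18 for mitotic genes. On that scale 42 of 54 genes were still lowest in the medial nasal library, against 27.2% of all genes, but only 4 were at least 20% below, against 4.42%. The commonest pair order then held for 29 of the 54 genes, against 22.4% of all genes, with 10 of 23 replication and 19 of 24 mitotic genes. The difference between replication and mitotic genes in the mandibular library was 0.10 on that scale.

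**Figure D4:**
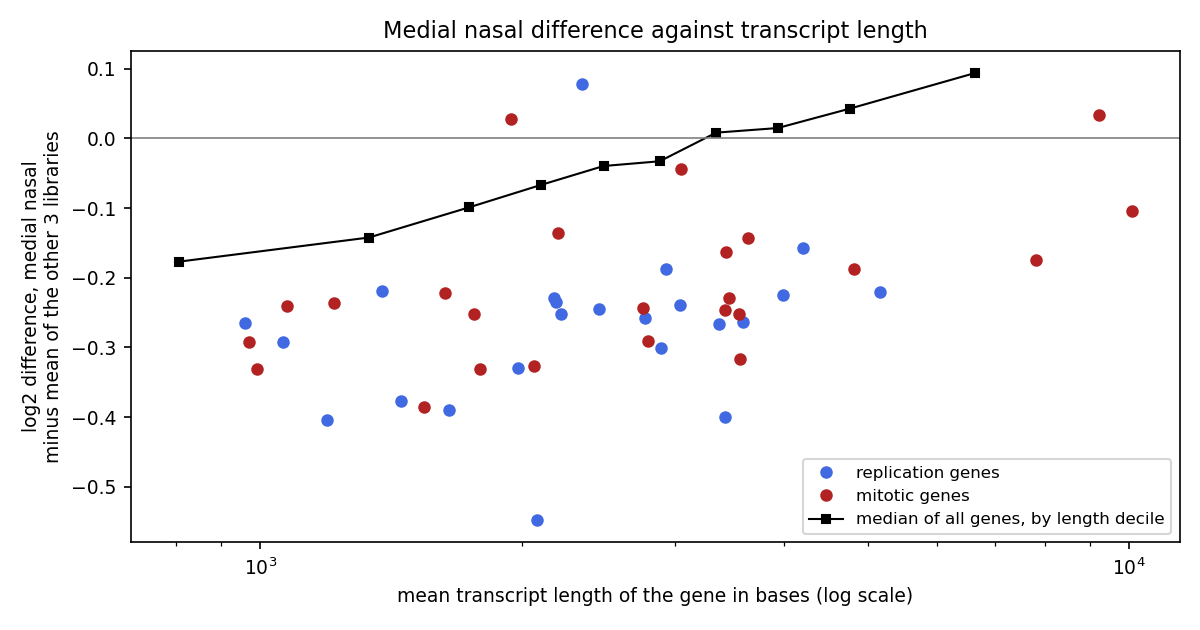
Difference of the medial nasal library from the mean of the other 3 (y axis, log2 of CPM + 0.5) against mean transcript length (x axis, bases, log scale), with 1 point per replication or mitotic gene and the median of all genes in each length decile as a line. The line runs from -0.18 for the shortest decile to above 0 for long transcripts, and nearly all replication and mitotic genes lie under it, Gins2 and Cdc25c being the clear exceptions.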

How the data were processed

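Total RNA of 4 facial processes (1 library each) was sequenced by the authors as stranded, ribosomal RNA-depleted, single-end 50 bp reads. Per the labels and the study's methods, the authors aligned them to mm10 with STAR and quantified GENCODE M4 genes with RSEM 1.4.1. The deposited estimated counts divide reads that match several genes among them, and the deposited TPM values are scaled by RSEM for transcript length and library size.

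Here estimated counts were rounded, spike-in entries and entries named by a number alone were left out, and symbols and gene coordinates came from GENCODE M21 (GRCm38). Counts were scaled to CPM with TMM factors (edgeR 4.0.16), and differences were taken on log2(CPM + 0.5), which understates changes of low genes. Depth bounds precision: 5 CPM corresponded to 67.4 to 81.2 counts. Intervals were exact (Clopper-Pearson) for shares and ratios of 2 libraries and approximate for medians, all at 95%, and cover counting error only. The calls of genes above or below the other libraries were tested on simulated counts, with 1.5-fold changes in a single library and counting noise only. That simulation does not cover the smaller list medians or differences between embryos. The genes and lists were chosen with earlier results of these data known. All 55 genes were named; values in every library were due for genes at least 1.5-fold apart and for the most abundant gene of each role by TPM, and those of further genes were added after they had been seen. Of each further list the up to 4 most variable genes were named, and of each marker list the most abundant. Alternatives were DESeq2 1.42.0 size factors, no factors, protein-coding genes alone, TPM, other pseudocounts, minima and fold limits, leaving out a library, and, added after seeing the data, centring on length or GC deciles. A further neuroepithelial marker is not reported here.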

Additional observations from a re-analysis of the deposited data

How the results depend on the processing

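With 1 library per process, differences between embryos cannot be told apart from differences between processes. No paired analysis was possible because each process has a single library. Neither the replication nor the mitotic median turned its direction where its counting interval excluded 0, and nor did their difference. The medians of the further lists were not recomputed under other settings, and single genes were compared between CPM and TPM alone. No scaling moved the median of all genes by over 0.1. Of the comparisons with an alternative, 346 stayed within counting error (medians) or within 1.5-fold (counts) and 89 moved further, and the cause was not tested. Part of the 346 was fixed in advance, since scaling could not change the difference between the replication and mitotic medians. Medial nasal levels were lowest for 40 to 44 of the genes above the minimum under every scaling and centring tried. These were 54 genes in CPM. With TPM the minimum was a mean of 5 TPM, which Cdkn2c (2.32 TPM) did not reach and 9507 entries did.

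With total counts and no factors, the replication median was -0.21 (medial nasal), 0.13 (maxillary) and -0.017 (mandibular), and the mitotic median -0.19, 0.14 and -0.11. With protein-coding genes alone, the lateral nasal medians were 0.079 (replication) and 0.085 (mitotic), and the medial nasal ones -0.22 and -0.20. With TPM, the replication median was 0.16 (lateral nasal) and 0.11 (maxillary), the mitotic median 0.15 (maxillary), and the lateral nasal difference between both lists 0.030. Length centring gave lateral nasal medians of 0.066 and 0.088 and medial nasal ones of -0.22 and -0.18. GC centring gave a mitotic median of 0.091 (lateral nasal), medial nasal medians of -0.22 and -0.20, and a replication median of 0.13 (maxillary).

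Genes at least 20% below in the medial nasal library numbered 7 with no factors, with protein-coding genes alone and with GC centring (5.28% of all genes with GC centring). With length centring there were 4 (4.42%). With limits of 13% below and 15% above there were 39 below in the medial nasal and 4 in the mandibular library, and 5, 17 and 7 above in the lateral nasal, maxillary and mandibular. With limits of 33% and 50% there were 0 (lateral nasal), 1 (medial nasal) and 0 (mandibular) below, and 0 above in the maxillary and 1 in the mandibular. The share of all genes was not counted at these looser and stricter limits, nor with a library left out. Those numbers are therefore no result about the cell cycle genes. TPM gave 1 above and 1 below in the lateral nasal library. A minimum of 1 CPM, or none, gave 1 above in the medial nasal (Cdkn1a). Length centring gave 1 above in the maxillary, 4 above and 1 below in the mandibular, and GC centring 5 above and 1 below in the mandibular. At a span of 2-fold 0 genes remained. For pairs of libraries, both nasal over both first arch held for 1 gene with TPM, length or GC centring. Medial nasal and mandibular over the others held for 2 with TPM, 0 with length and 3 with GC centring, lateral nasal and mandibular over the others for 7 with TPM and 8 with length centring, and the reverse for 1 with TPM and 1 with no factors.

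Leaving out 1 other library at a time, the replication median ranged from 0.026 to 0.18, -0.30 to -0.24, 0.061 to 0.21 and -0.080 to 0.071 (processes in the order used above). The mitotic median ranged from 0.045 to 0.20, -0.27 to -0.18, 0.11 to 0.24 and -0.16 to -0.012, and their difference from -0.025 to 0.030, -0.061 to -0.030, -0.053 to 0.020 and 0.078 to 0.087. Genes at least 25% above numbered 0 to 3 in the lateral nasal (3 without the maxillary library), 0 to 0 in the medial nasal, 1 to 9 in the maxillary (9 without the lateral nasal, 1 without the medial nasal, 5 without the mandibular) and 1 to 5 in the mandibular (1 without the medial nasal, 5 without the maxillary). Genes at least 20% below numbered 1 to 4 in the lateral nasal (4 without the medial nasal, 1 without the mandibular), 8 to 18 in the medial nasal, 0 to 0 in the maxillary and 1 to 2 in the mandibular (1 without the lateral nasal or the maxillary).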

Other observations

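Target genes of p53, the factor that halts the cycle after DNA damage, formed a separate list. Over the 13 of 15 listed genes above 5 CPM, the median log2 difference was 0.13, 0.13, -0.02 and -0.19 (order of processes as above), with 3 of 13 above 0 in the last. All genes had medians of 0.03, -0.04, 0.02 and -0.0047, with 5733 of 11694 above 0 in the last. Btg2, an antiproliferative gene, had 19.3, 27.1, 11.7 and 12.03 CPM and was 2.33-fold higher in the medial nasal than in the maxillary library (1.94 to 2.80). Gadd45a, a stress gene, had 9.17, 9.83, 6.72 and 4.83 CPM (2.04-fold). Zmat3, an RNA-binding target, had 35.5, 52.8, 27.7 and 40.7 CPM (1.91-fold), and Sesn2, another stress gene, had 11.7, 11.6, 10.4 and 8.17 CPM (1.43-fold). Btg2, Gadd45a and Zmat3 were highest in the medial nasal library, Gadd45a by a small margin (9.83 against 9.17 CPM in the lateral nasal). Of the 13 genes, 5 were highest in the lateral nasal (25.1% of all genes) and 5 in the medial nasal library (20.6%). The summed neuron markers were 297 CPM in the lateral nasal and highest, at 548 CPM, in the medial nasal library. The part of neurons in these levels was not tested.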
